A study of Mus musculus with 10 samples.

Results

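The polyamine metabolism genes described here are Smox, Sat1, Odc1, Amd1, Srm, Sms, Azin1 and Oaz1, chosen by their measured levels over the 5 groups of mouse muscle and muscle cell arrays. They were read as the gene probes whose RefSeq identifier in the scanner files belongs to one of these genes. Of the 8 listed genes 7 were found, on 15 probes, out of 19752 named genes on 26056 probes. No probe carried the identifier of Amd1. Its near-identical copy Amd2, whose synonyms in RefSeq include Amd1, was on 3 probes and is described as a related gene, since signal from the 2 genes may not be separable. The study expressed Fv2E-PERK, a form of the stress kinase PERK that is switched on by the dimerizing drug AP20187, in skeletal muscle and in C2C12 cells, and measured RNA on 10 single-colour arrays, 2 in each of 5 groups.

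All mice were male C57BL/6J. The first muscle group was untreated wild type. The second was hSA::Fv2E-PERK transgenic muscle given vehicle by intraperitoneal injection, and the third the same transgenic muscle given AP20187 at 1 ng per gram body weight and collected after 12 h. The hSA promoter, from the skeletal actin gene, restricts the transgene to muscle fibres. The wild type mice are labelled untreated rather than injected with vehicle, so transgene and vehicle injection cannot be told apart in a comparison with them. The 2 cell groups were C2C12 cells, a mouse myoblast line, carrying Fv2E-PERK and differentiated in low serum for 3 days, with vehicle or with 100 nM AP20187 for 12 h. The sources used here do not give the muscle sampled, the mice's age, or whether arrays of a group came from separate animals or cultures. The p-values therefore measure only the spread between these samples, which may be technical.

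Polyamines are small positively charged molecules that bind nucleic acids and are needed for growth and protein synthesis. Ornithine decarboxylase (Odc1) makes putrescine, S-adenosylmethionine decarboxylase (Amd1) supplies the aminopropyl donor, and spermidine synthase (Srm) and spermine synthase (Sms) add that group in turn to give spermidine and spermine. Spermine oxidase (Smox) turns spermine back into spermidine with release of hydrogen peroxide, and spermidine/spermine acetyltransferase (Sat1) marks both for breakdown or export. Antizyme (Oaz1) binds ornithine decarboxylase and sends it to the proteasome, and antizyme inhibitor (Azin1) binds antizyme and frees the enzyme. In skeletal muscle Smox is known as a gene that maintains fibre size, and PERK, through phosphorylation of the translation factor eIF2alpha, lowers protein synthesis and raises ATF4, which binds C/EBP-ATF composite elements.

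The sequences before the transcription start are shown for Smox and Amd2, which stood furthest below wild type in transgenic muscle, for Sat1, which stood above it, and for Amd1, to set beside its copy Amd2. They are RefSeq sequences of build GRCm38.p6, 250 bases up to the start, written 5′ to 3′ on the gene's own strand, at chr2:131491612-131491861 on the plus strand for Smox, and on the minus strand at chrX:155216450-155216699 for Sat1, chr10:40302189-40302438 for Amd1 and chr10:35711892-35712141 for Amd2. Capitals mark the GC box GGGCGG on either strand.
Smox: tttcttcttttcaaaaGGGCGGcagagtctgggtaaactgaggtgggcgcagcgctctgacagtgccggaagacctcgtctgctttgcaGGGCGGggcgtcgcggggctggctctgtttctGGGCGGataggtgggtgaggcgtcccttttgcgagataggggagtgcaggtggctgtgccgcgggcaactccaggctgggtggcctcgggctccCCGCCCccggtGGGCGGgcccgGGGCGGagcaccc
Sat1: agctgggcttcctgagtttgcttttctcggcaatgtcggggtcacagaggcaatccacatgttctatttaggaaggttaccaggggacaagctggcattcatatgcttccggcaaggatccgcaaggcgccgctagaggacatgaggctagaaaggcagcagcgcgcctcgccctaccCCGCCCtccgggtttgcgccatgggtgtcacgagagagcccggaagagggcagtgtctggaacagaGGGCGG
Amd1: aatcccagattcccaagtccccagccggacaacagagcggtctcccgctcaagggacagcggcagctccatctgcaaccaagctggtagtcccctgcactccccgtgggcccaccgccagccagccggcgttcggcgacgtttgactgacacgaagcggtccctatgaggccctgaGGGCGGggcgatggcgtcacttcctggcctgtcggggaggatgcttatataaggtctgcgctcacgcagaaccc
Amd2: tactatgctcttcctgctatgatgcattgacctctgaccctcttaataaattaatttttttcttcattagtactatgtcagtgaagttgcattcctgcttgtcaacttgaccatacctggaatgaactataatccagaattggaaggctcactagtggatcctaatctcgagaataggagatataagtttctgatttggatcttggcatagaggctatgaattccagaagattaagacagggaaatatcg

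The Smox window held 6 GC boxes, that of Sat1 2, that of Amd1 1 and that of Amd2 none. Windows of Odc1, Sms (2 starts) and Oaz1 were searched as well, so that 6 of the 8 listed genes and Amd2 had an entry, in 8 windows. Odc1 held 4 GC boxes, the second Sms window 4 and Oaz1 none. Among all 32851 RefSeq promoter windows of this length 32.7% held GGGCGG. The E-box CACGTG, found in 6.02% of all windows, was in the first Sms window only, and the C/EBP-ATF composite letters TTGNATCA, found in 2.30% of all windows, were in none of the 8, both strands being read. GC content was 68.0% for Smox and 37.6% for Amd2, on either side of the median of 52.4% over all windows. The windows of Amd1 (64.4% GC) and Amd2 shared no run longer than 7 bases before the start, while the 50 bases after it shared a run of 48. These matches describe letters only.

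Levels are given as log2 of the background-subtracted signal relative to the 75th percentile of the same array, so 0 is a probe at that percentile and 1 unit is a factor of 2. A level is read within one gene across arrays, never between genes. Between 41.0% and 53.1% of probes were well above background per array, and replicate arrays of a group correlated at 0.992 to 0.9953 across genes. The probe used for each of the 7 genes and for Amd2 was well above background on all 10 arrays. None of the 7 genes had a saturated probe, while saturation of the Amd2 probes was not checked. Both wild type arrays were scanned in one session and all 4 transgenic arrays in another, so genotype and scan cannot be told apart, whereas AP20187 and vehicle in transgenic muscle were scanned together. Even there both vehicle arrays lay in slide column 1 and the AP20187 arrays in columns 3 and 4, so column and treatment cannot be told apart. The C2C12 arrays were scanned in another session with vehicle in slide row 1 and AP20187 in slide row 2, so row and treatment cannot be told apart there. Positions are as the headers give them, and the headers give the 8 transgenic and C2C12 arrays 1 slide identifier, with 2 positions used by arrays of both. All 5 muscle fibre markers with a value on every array were well above background on both arrays of all 5 groups. Their summed linear level was 4940 to 5620 in wild type, 5890 to 5960 with vehicle and 4450 to 5090 with AP20187 in muscle. It was far lower in C2C12 cells, at 432 to 491 with vehicle and 361 to 407 with AP20187. With AP20187 in transgenic muscle 1 of 7 fibre markers tested fell, Mylpf (-0.52), as did 1 of 5 fibroblast markers. Of 7 macrophage markers tested, 6 fell with AP20187 in transgenic muscle. Their summed level, on the linear scale relative to the 75th percentile, was 36.4 and 39.8 in wild type, 30.8 and 33.9 with vehicle and 18.3 and 18.5 with AP20187, with Ptprc not well above background in the last group, and their part in the polyamine values was not tested. Of 6 myotube and myoblast markers tested there, 2 rose, Myog (3.44, 10.9-fold) and Myod1 (0.58), and Myh8 fell (-0.52). The summed level of the 5 with a value on every array, which leaves out Myh3, was 180 and 214 in wild type, 184 and 198 with vehicle and 231 and 232 with AP20187. Most of that sum was Des, which is on the fibre list as well. Des alone was 132 to 160 in wild type, 154 to 158 with vehicle and 158 to 173 with AP20187. In these bulk samples fewer cells of a type and less RNA per cell cannot be told apart.

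Because the genes were chosen by these levels, the values and counts for the 7 are a description: a fit on the same levels is no independent test of them, and nothing is read from how many passed. Differences are log2 differences of group means with the standard error (SE) from limma, and a gene is counted as passing at a Benjamini-Hochberg adjusted p under 0.05 over all genes tested. In transgenic vehicle muscle against wild type, 5 of the 7 passed, 3 higher and 2 lower, beside 38.3% of all 13543 genes tested (25.7% higher and 12.6% lower). Quantile normalization evened that split over all genes from 3478 higher and 1706 lower to 2602 and 2323, and gave 2 of the 7 higher and 4 lower. With AP20187 against vehicle in transgenic muscle 4 of 7 passed, 3 higher and 1 lower, beside 29.3% of all genes (14.3% higher and 15.0% lower). There quantile normalization moved the split over all genes from 1937 higher and 2027 lower to 2074 and 1201, with 3 of the 7 higher and none lower. Both comparisons use the same vehicle arrays, and nothing is read from how the 2 sets of values run together.

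**Figure D1:**
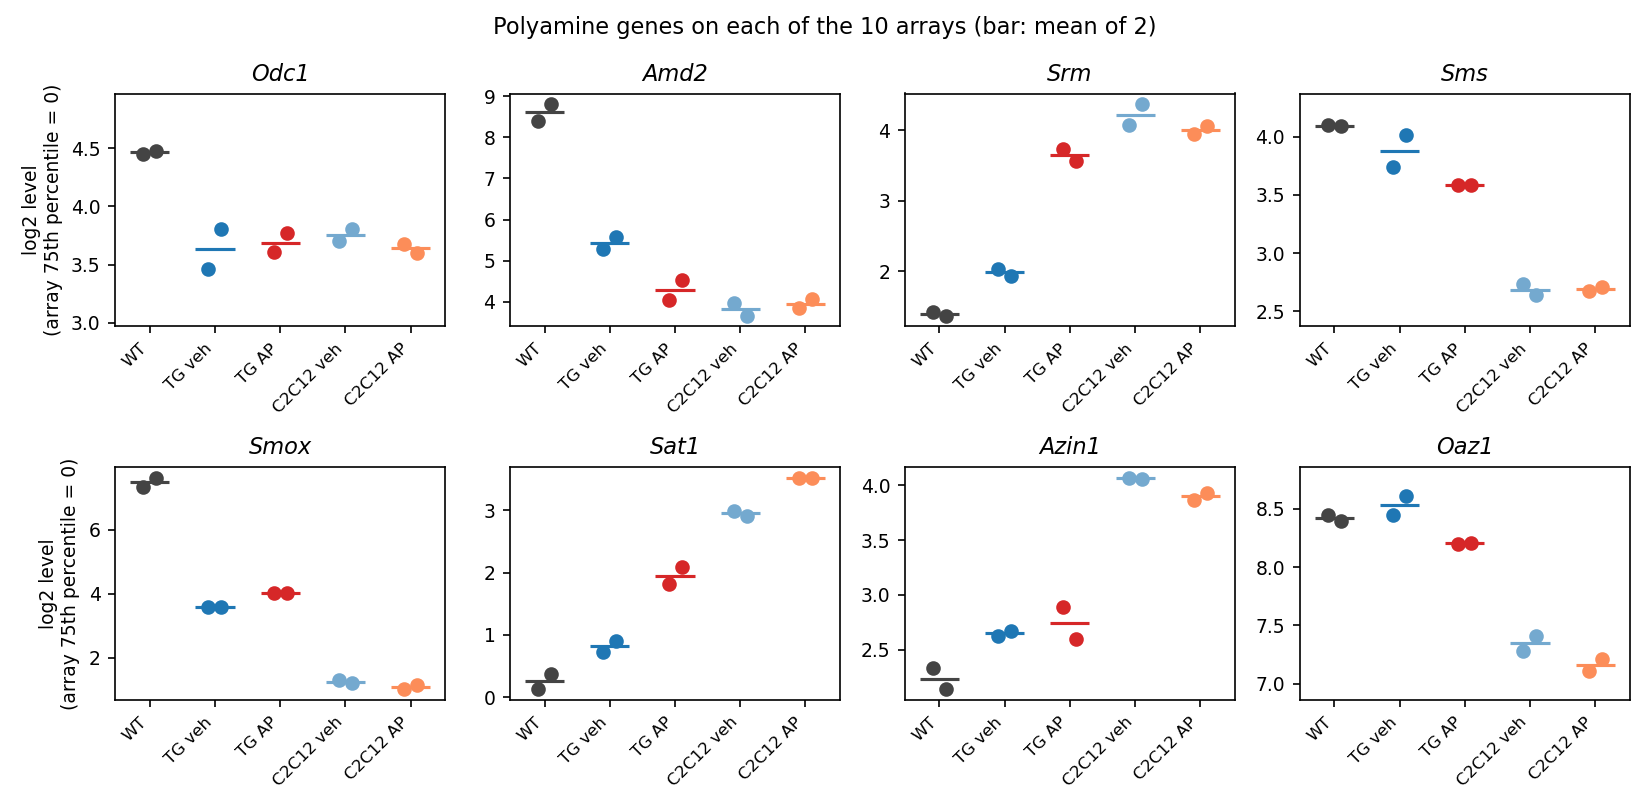
Log2 level relative to the array's 75th percentile (y axis) on each of the 10 arrays (points) in the 5 groups (x axis), 1 panel for each of the 7 genes and Amd2. The bar is the mean of 2 arrays. Smox and Amd2 stand highest in wild type muscle, while Sat1 and Srm stand lowest there.

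Smox, the spermine oxidase, was the gene furthest from wild type among the 7. Its log2 level was 7.33 and 7.62 on the wild type arrays, 3.57 and 3.59 with vehicle in transgenic muscle and 4.01 and 4.03 with AP20187. In C2C12 cells it was 1.30 and 1.22 with vehicle and 1.02 and 1.15 with AP20187. No 2 groups overlapped, and the order was wild type, transgenic with AP20187, transgenic with vehicle, C2C12 vehicle and C2C12 AP20187. Transgenic vehicle muscle stood 14.9-fold below wild type (log2 difference -3.90, SE 0.11, 95% interval -4.15 to -3.64, n = 2 per group), the 9th lowest of 13543 differences. AP20187 muscle was above vehicle by 0.44 (SE 0.11, 95% interval 0.19 to 0.70), a factor of 1.36, and stood 11-fold below wild type (log2 difference -3.46). The second Smox probe gave -4.33 and 0.34 for the first 2 of these differences. The call for the difference with AP20187 was lost when any 1 of the 4 transgenic arrays was left out, at log2 differences of 0.43 to 0.46.

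**Figure D2:**
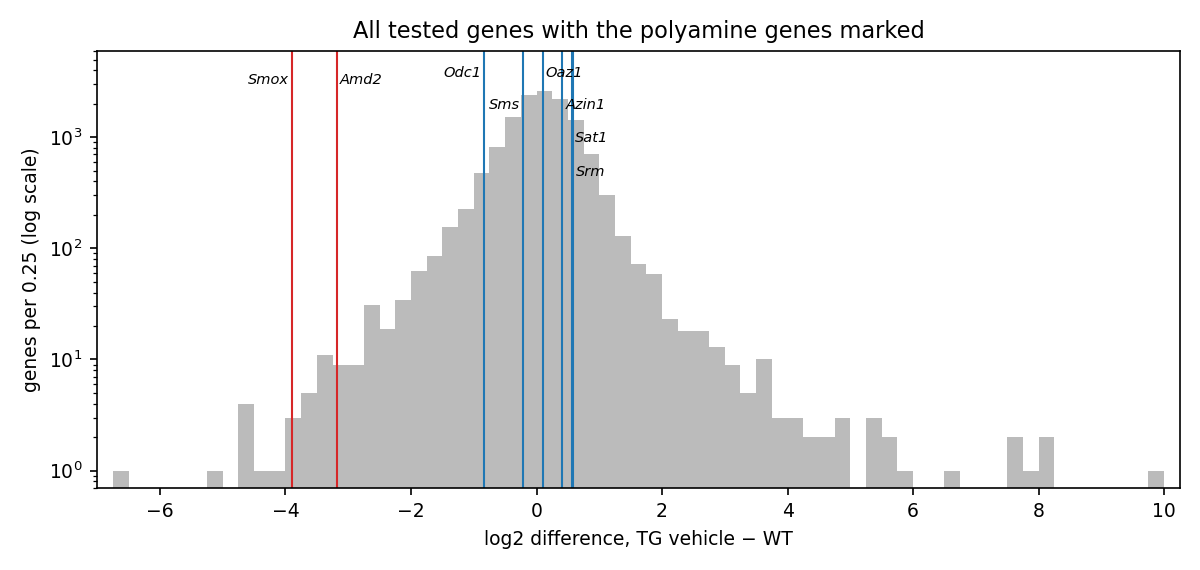
Number of genes (log y axis) by log2 difference of transgenic vehicle muscle from wild type (x axis), for the 13543 genes tested, with lines at the 7 genes and Amd2. Smox at -3.90 and Amd2 at -3.18 lie in the lower tail, and the other 6 lie between -0.83 and 0.58.

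Sat1, which acetylates spermidine and spermine, ran in the other direction in muscle. Its log2 level was 0.13 and 0.38 in wild type, 0.73 and 0.90 in transgenic vehicle and 1.81 and 2.09 in transgenic AP20187 muscle. The 3 muscle groups did not overlap and stood in that order. Vehicle muscle was above wild type by 0.56 (SE 0.15, 1.48-fold), a call lost with the authors' deposited table, without wild type replicate 1 and without vehicle replicate 2. AP20187 muscle was above vehicle by 1.13 (SE 0.15, 95% interval 0.79 to 1.47, 2.19-fold). Against wild type the AP20187 muscle was 3.24-fold higher. In C2C12 cells Sat1 was higher than in any muscle group, at 2.99 and 2.90 with vehicle and 3.51 and 3.52 with AP20187.

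Among the genes of synthesis, Srm, the spermidine synthase, changed most with AP20187. Its log2 level was 1.43 and 1.37 in wild type, 2.03 and 1.94 in vehicle and 3.73 and 3.57 in AP20187 muscle. The 3 groups did not overlap. The difference of vehicle muscle from wild type was 0.58 (SE 0.10, 1.5-fold), and that of AP20187 from vehicle 1.66 (SE 0.10, 95% interval 1.42 to 1.90, 3.17-fold). AP20187 muscle stood 4.75-fold above wild type. Myog, a myoblast and myotube marker, was also lowest in wild type and highest with AP20187 among the muscle groups, as Sat1 and Srm were, while Myod1 was highest in wild type, and the part of such cells in the Sat1 and Srm values was not tested. A second Srm probe gave 0.55 and 1.62 for the same 2 steps.

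Odc1, the ornithine decarboxylase at the head of synthesis, was at 4.45 and 4.48 in wild type, 3.46 and 3.81 in vehicle and 3.61 and 3.77 in AP20187 muscle. The wild type arrays lay above all others, and the 2 transgenic groups overlapped. Vehicle muscle was 1.78-fold below wild type (log2 difference -0.83, SE 0.13), and AP20187 differed from vehicle by 0.06 (SE 0.13, 95% interval -0.24 to 0.36). The 3 Odc1 probes ranged from -1.0 to -0.75 for the first difference and from -0.31 to 0.15 for the second. Odc1 was at 3.70 and 3.81 in C2C12 vehicle and 3.68 and 3.60 in C2C12 AP20187, overlapping the transgenic muscle.

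Sms, the spermine synthase, was at 4.10 and 4.09 in wild type, 3.74 and 4.01 in vehicle and 3.58 on both AP20187 arrays. These groups did not overlap, but neither step passed: vehicle differed from wild type by -0.22 (SE 0.11) and AP20187 from vehicle by -0.30 (SE 0.11). The first step passed with quantile normalization (-0.39) and with a mean over probes (-0.67), and the second without vehicle replicate 1 (-0.43). AP20187 muscle against wild type, at -0.52 (SE 0.11), passed, and a mean over the probes gave -0.97. The 3 Sms probes disagreed on the first step, at -0.22 for the brightest and -0.88 and -0.92 for the others, and gave -0.33 to -0.28 for the second. The C2C12 groups, at 2.73 and 2.64 with vehicle and 2.67 and 2.71 with AP20187, lay below all muscle arrays and overlapped.

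**Figure D3:**
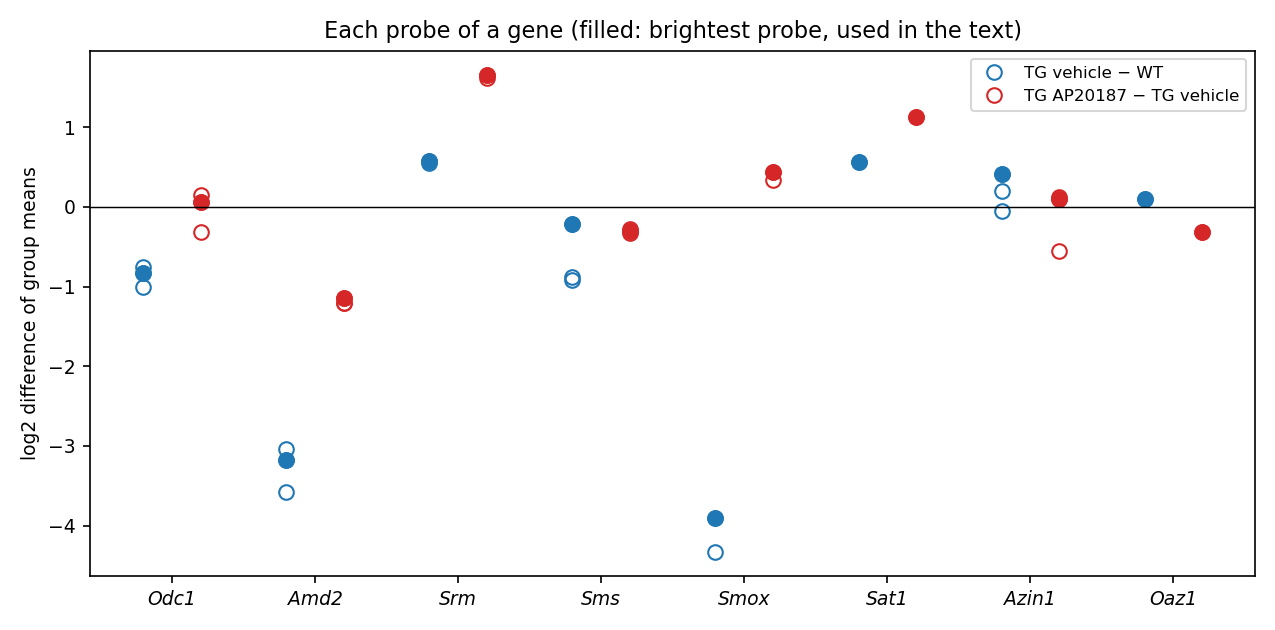
Log2 difference of group means (y axis) for each probe of the 7 genes and Amd2 (x axis), for transgenic vehicle against wild type muscle and AP20187 against vehicle in transgenic muscle. Filled points are the brightest probe of a gene, which gives its values in the text. The 2 Smox probes are at -3.90 and -4.33 in the first comparison, and the 3 Sms probes spread from -0.92 to -0.22.

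Of the 2 regulators, Oaz1, the antizyme, was at 8.45 and 8.40 in wild type, 8.45 and 8.61 in vehicle and 8.20 and 8.21 in AP20187 muscle. Wild type and vehicle overlapped, with a difference of 0.10 (SE 0.09) that turned to -0.43 under quantile normalization. AP20187 muscle lay below both, at -0.32 (SE 0.09, 1.25-fold) against vehicle. That call was lost under 10 of 15 alternatives, and quantile normalization gave -0.06. In C2C12 cells Oaz1 was at 7.28 and 7.41 with vehicle and 7.11 and 7.21 with AP20187, below every muscle array.

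Azin1, the antizyme inhibitor, was at 2.33 and 2.14 in wild type, 2.63 and 2.67 in vehicle and 2.89 and 2.60 in AP20187 muscle. Vehicle was above wild type by 0.41 (SE 0.13, 1.33-fold), a call lost under 8 of 15 alternatives, among them leaving out any 1 wild type or vehicle array, with quantile normalization giving 0.24 and a mean over probes 0.19. The 2 transgenic groups overlapped, with a difference of 0.10 (SE 0.13, 95% interval -0.19 to 0.39). The 3 probes ranged from -0.05 to 0.41 for the first difference and from -0.56 to 0.12 for the second, and the dimmest was well above background on 8 of 10 arrays. The C2C12 arrays lay higher, at 4.07 and 4.06 with vehicle and 3.87 and 3.93 with AP20187.

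**Figure D4:**
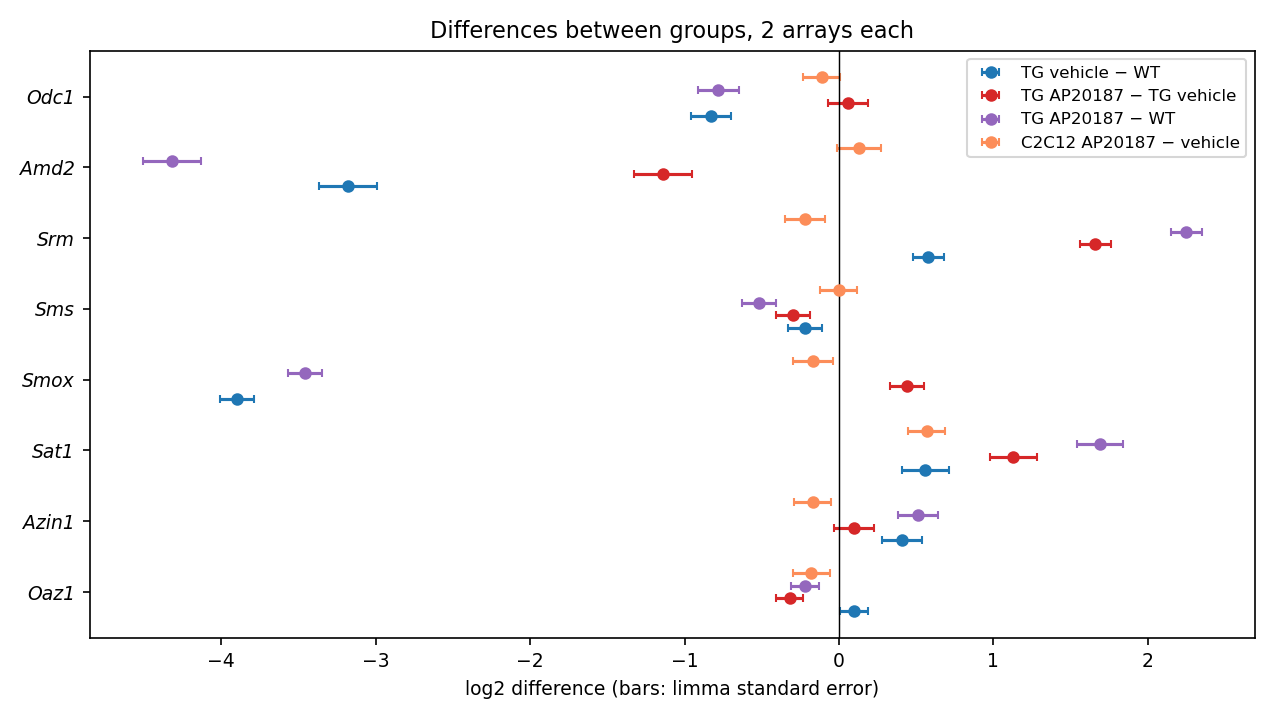
Log2 difference with its limma SE (x axis) for the 7 genes and Amd2 (y axis) in 4 comparisons. In muscle Smox lies at -3.90 against wild type and at 0.44 with AP20187, Srm at 0.58 and 1.66, and in C2C12 cells the 7 genes lie between -0.22 and 0.57.

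Set directly against wild type, AP20187 muscle had 6 of 7 genes passing, 3 higher and 3 lower, beside 52.2% of all genes (29.6% higher and 22.6% lower). Srm (2.25), Sat1 (1.69) and Azin1 (0.51, and 0.07 as a mean over probes) were higher on the log2 scale, and Smox (-3.46), Odc1 (-0.78) and Sms (-0.52) lower. Oaz1, at -0.22 (SE 0.09, 95% interval -0.44 to 0.00), did not pass, but passed with quantile normalization, at -0.49, and with only the 2 groups in the fit. The Azin1 call was also lost without wild type replicate 2 or AP20187 replicate 1. The median of the 7 was -0.22 here, 0.10 in each of the other 2 muscle comparisons, beside medians over all genes of 0.04 here, 0.09 for vehicle against wild type and -0.11 for AP20187 against vehicle. These medians of 7 depended on the processing: quantile normalization gave -0.49 for AP20187 against wild type and turned that of vehicle against wild type to -0.39, and a mean over probes gave -0.03 for AP20187 against vehicle.

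In C2C12 cells, by the same limma fit and as a description, 0 of the 7 passed with AP20187, beside 0.482% of 11414 genes tested. At an unadjusted p under 0.05 there was 1 of the 7, beside 1617 of the 11414. Sat1 was the gene with the largest difference, 0.57 (SE 0.12, 95% interval 0.31 to 0.83), and its vehicle and AP20187 arrays did not overlap. It passed under 2 of 12 alternatives, at 1.25 with quantile normalization and at 0.57 with no filter on dim probes. The others lay between -0.22 and 0.00, with Srm at -0.22 (95% interval -0.51 to 0.07) and Smox at -0.17 (95% interval -0.46 to 0.12). The probes not used gave 0.22 for Smox, -0.1 for Srm and 0.25 and -0.04 for Odc1. Those of Sms gave 0.21 and -0.13, and those of Azin1 -0.06 and 0.31. Probes of Smox, Odc1, Sms and Azin1 thus differed in direction. The direction depended on scaling: quantile normalization, which moved the median of all genes from -0.06 to 0.38 and the split of calls from 36 higher and 19 lower to 4589 and 72, placed Odc1, Srm, Azin1 and Oaz1 above vehicle instead, at 0.59 to 0.62, with Sms at 0.55 and Smox at 0.20. Adipocyte markers moved with the treatment in these cells: 4 of 5 rose with AP20187, with a median of 3.45, and their summed linear level was 0.717 and 1.01 with vehicle and 7.67 and 10.9 with AP20187. Adipoq was not well above background on either vehicle array, and Fabp4, Cfd, Plin1 and Retn were well above it on only 1 of the 2. These rises therefore start from levels near background. Of 6 muscle fibre markers tested in C2C12 cells 1 fell, and the part of these marker lists in the polyamine values was not tested.

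The AP20187 change in muscle was set against that in C2C12 cells by the difference of the 2 changes. Smox and Srm passed, 2 of 7, both with a larger change in muscle, beside 12.0% of 14094 genes (7.98% higher in muscle and 4.02% lower). The difference was 1.88 (SE 0.17, 95% interval 1.51 to 2.25) for Srm and 0.62 (SE 0.15, 95% interval 0.28 to 0.96) for Smox. The second Smox probe rose in both systems, by 0.34 in muscle and 0.22 in C2C12 cells. The Smox probe used gave 0.44 and -0.17. Sat1, with 1.13 in muscle and 0.57 in C2C12 cells, had a difference of 0.56 (SE 0.19, 95% interval 0.15 to 0.98) that did not pass. The remaining 4 lay between -0.30 and 0.27, and Azin1 passed with normexp background correction, at 0.65. The Smox call was lost under 9 of 18 alternatives, among them leaving out any 1 of the 4 transgenic arrays (0.60 to 0.63), C2C12 vehicle replicate 1 (0.58) or C2C12 AP20187 replicate 1 (0.55), and a mean over probes (0.37). Quantile normalization gave 0.32 for Smox and 1.04 for Srm. It turned Sat1 to -0.18, Odc1 to -0.47 and Azin1 to -0.49, and Sms (-0.74) and Oaz1 (-0.66) passed under it, with calls over all genes split 585 higher and 3274 lower in place of 1125 and 566.

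Amd2, the near-identical copy of the decarboxylase gene Amd1, was the related gene nearest to Smox in its levels. It was at 8.41 and 8.81 in wild type, 5.28 and 5.58 in vehicle and 4.04 and 4.53 in AP20187 muscle. The 3 groups did not overlap. The Amd2 probes may have stood for Amd1, which was chosen by its levels, so the Amd2 values are a description as well. Vehicle stood 9.04-fold below wild type (log2 difference -3.18, SE 0.19), the 30th lowest of all differences. AP20187 lay a further 2.21-fold lower (-1.14, SE 0.19), where Smox was higher. AP20187 muscle was 19.9-fold below wild type. Its C2C12 levels, 3.98 and 3.66 with vehicle and 3.85 and 4.06 with AP20187, overlapped each other, and those with AP20187 overlapped AP20187 muscle. The 3 Amd2 probes gave -3.58 to -3.04 and -1.21 to -1.14 for the 2 steps.

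By the shape of their levels over the 10 arrays, the root mean square difference of log2 values after centring each gene, Amd2 was the 11th nearest to Smox of 9463 genes well above background on every array, at 0.96. The nearest 4 were Pdk4 (0.69), a kinase that shuts off pyruvate oxidation, Car3 (0.71), a carbonic anhydrase of muscle, Cd24a (0.77), a surface glycoprotein, and Nr4a1 (0.79), a nuclear receptor. Pdk4 had group means of 6.03 in wild type, 3.48 in vehicle and 4.47 in AP20187 muscle. Of the 7 genes themselves Sms was nearest to Smox, at rank 1250, and Sat1 furthest, at rank 8949. These are descriptions of 10 arrays, chosen with Smox in view.

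A list of 30 other genes of polyamine, methionine salvage and hypusine metabolism was read as context, of which 23 were bright enough to be tested, and Arg1, Arg2, Oaz3, Satl1, Aoc1, Mat1a and Slc22a3 were not. The list was written with earlier results of these arrays known. Its counts and adjusted p-values, here and in the next paragraph, are therefore a description and no independent test. In vehicle against wild type muscle 10 of 23 rose and 2 fell, beside 25.7% of all genes higher and 12.6% lower, with a median of 0.44 beside 0.09 for all genes. Under quantile normalization the median was 0.27. Slc3a2, the heavy chain of amino acid transporters, rose by 1.93 (limma adjusted p = 4.95e-05), and Dhps, the first enzyme of hypusine synthesis on eIF5A, by 0.74 (adjusted p = 0.00104). Mri1 (0.66, adjusted p = 0.00211), of methionine salvage, and Mat2b (0.60, adjusted p = 0.00331), the regulatory subunit of an S-adenosylmethionine synthetase, rose as well, Mat2b by 0.31 under quantile normalization. Besides Amd2 the gene that fell was Adi1, a dioxygenase of methionine salvage, at -0.61 (adjusted p = 0.0016).

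With AP20187 in transgenic muscle 1 of the 23 rose and 4 fell, beside 14.3% of all genes higher and 15.0% lower, with a median of -0.27 beside -0.11 for all genes. The median was -0.16 under quantile normalization. Slc3a2 rose by 1.04 (adjusted p = 0.00122). Besides Amd2 those that fell were Adi1 (-0.55, adjusted p = 0.00433), Slc18b1 (-0.85, adjusted p = 0.0137), a vesicular polyamine transporter, and Oaz2 (-0.41, adjusted p = 0.0175), another antizyme. Slc18b1 lost its call without vehicle replicate 2 or AP20187 replicate 1 and was -0.52 with normexp background correction, and Oaz2 lost its call without either vehicle array or AP20187 replicate 2. Adi1 also fell further against wild type, to -1.16 (adjusted p = 5.45e-05), while Slc3a2 reached 2.96 (adjusted p = 2.41e-06), Mri1 0.66, Dhps 0.49 and Dohh, the second hypusine enzyme, 0.41 in AP20187 muscle. There 7 of 23 were higher and 2 lower, beside 29.6% of all genes higher and 22.6% lower. In C2C12 cells 0 of 23 passed by limma, beside 0.482% of 11414 genes tested. An unadjusted limma p under 0.05 was found for 5 of the 23, beside 1617 of all 11414. The difference of the AP20187 changes between muscle and C2C12 cells passed for 2 of 23, beside 12.0% of 14094 genes. These were Amd2 (-1.27, as a description) and Adi1 (-0.55, adjusted p = 0.0212). The Amd2 call was lost without vehicle muscle replicate 2 or C2C12 vehicle replicate 2. The Adi1 call was lost without either vehicle muscle array, AP20187 muscle replicate 1 or C2C12 AP20187 replicate 1, and both were lost with the authors' deposited table. Quantile normalization gave -0.85 for Adi1.

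**Figure D5:**
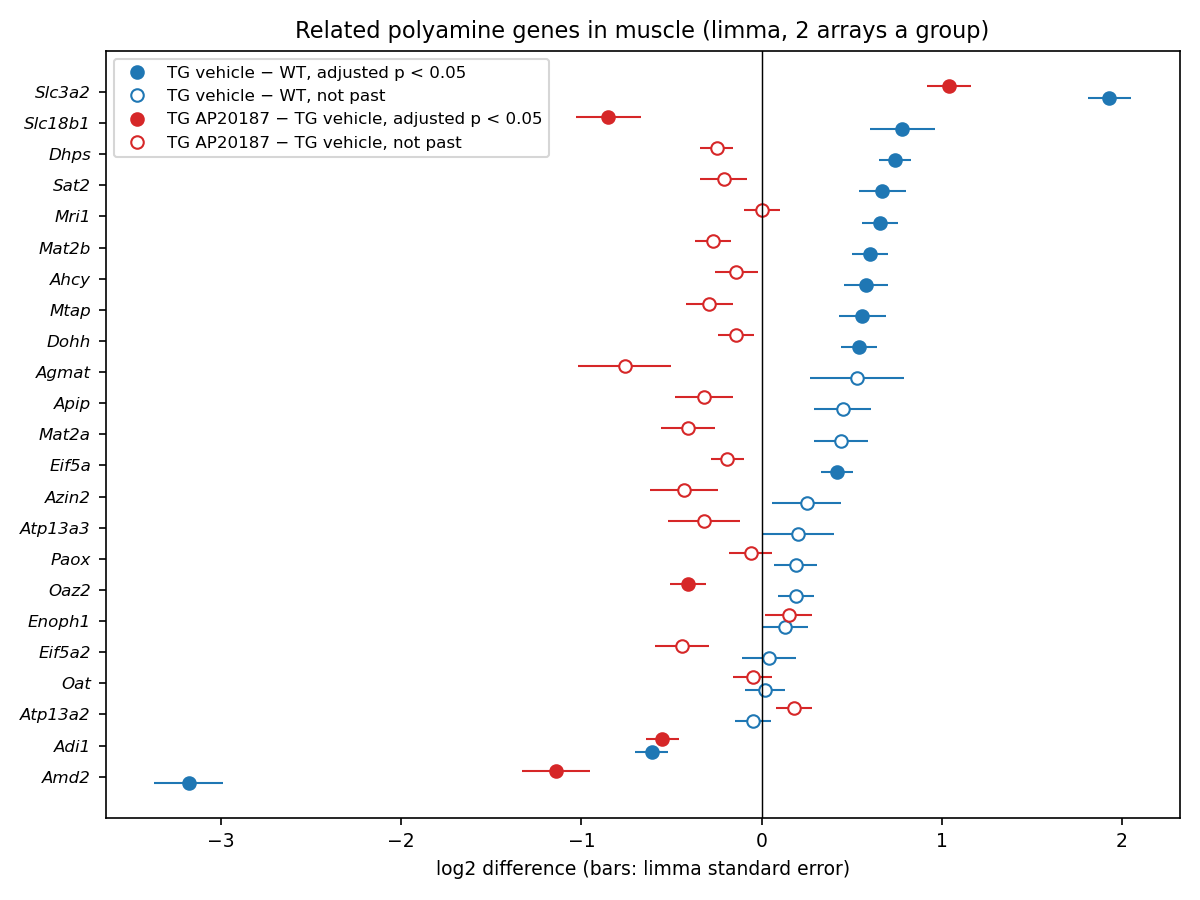
Log2 difference with its limma SE (x axis) of the 23 related genes tested (y axis) in transgenic vehicle against wild type muscle and in AP20187 against vehicle in transgenic muscle, with filled points for genes that passed. Slc3a2 lies highest in both, at 1.93 and 1.04, and Amd2 lowest in both, at -3.18 and -1.14.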

How the data were processed

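Gene expression in the 10 samples was measured on single-colour Agilent arrays of 62976 spots. Intensities were deposited as output of the scanner software (Agilent Feature Extraction, version 10.7.1.1 per the submitters' processing notes), and the authors' deposited log2 table holds normalized values of the same arrays. The processed signal, already background-subtracted, was taken to log2 and each array's 75th percentile of it subtracted, with outlier spots and control spots left out. Each gene was read from its brightest probe. Names came from RefSeq identifiers of the array, updated through RefSeq GRCm38.p6. The array's own build is mm9 per the file headers, so no probe coordinates are given. The only coordinates are those of the GRCm38.p6 promoter windows.

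Groups were fitted with limma 3.58.1 in R 4.3.3 on genes that both arrays of some group in the fit measured well above background, the 6 muscle arrays or 4 C2C12 arrays together, all 10 for the difference of changes. The deposited table had 55681 of its 55821 rows matched. Its differences between pairs of arrays followed those of the scanner values, outlier spots kept, at a correlation of at least 0.9998. Its column medians ran from -0.58 to 0.80, and its baseline is unknown. The members and the gene lists were chosen with earlier results of these data known. All 8 listed genes, related genes that passed (the 6 with the smallest p per comparison) and the 4 genes nearest to Smox are named. Tests on simulated data of 11632 genes found 80% of changes of 1 log2 unit for AP20187 in muscle and 64% in C2C12 cells. The simulation used only genes well above background on all 10 arrays, with normal noise of 1 spread per gene and few changed genes. In the data 29.3% of genes passed in muscle and 0.482% in C2C12 cells, so these rates need not hold there. Alternatives covered background correction (normexp, offset 50, on the median signal), quantile normalization, the dim filter, probes, outlier spots, the deposited table, the arrays in the fit, a replicate block and leaving out each array.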

Additional observations from a re-analysis of the deposited data

Results flagged for a closer look

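The AP20187 change in muscle minus that in C2C12 cells passed by limma for the related genes Amd2, at -1.27 on the log2 scale, and Adi1, at -0.55. Both calls were lost with the authors' deposited table. The same difference was 0.62 for Smox and 1.88 for Srm. The Smox call was also lost with that table, and under 9 of 18 alternatives in all, while Srm kept its call in all 18. The Smox probes differed in direction in C2C12 cells. All 4 values stand here as a description. Smox and Srm were chosen by levels in these groups, and Amd2 may have stood for Amd1 in that choice. The related list, with Adi1, was written with earlier results of these arrays known. Muscle and C2C12 arrays were scanned in separate sessions, and session and tissue cannot be told apart. In muscle, macrophage markers fell with AP20187 (median -0.91), and 1 of 7 fibre markers and 1 of 5 fibroblast markers fell. Of 6 myotube and myoblast markers there 2 rose, among them Myog (3.44), and 1 fell. In C2C12 cells adipocyte markers rose (median 3.45) from vehicle levels near background, and 1 of 6 fibre markers tested fell. The part of these markers in the 4 differences was not tested.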

How the results depend on the processing

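Counts are of genes passing. With the replicate block, related genes in AP20187 against vehicle muscle numbered 10 instead of 5 and members 5 instead of 4, with Sms added at -0.30, and no other count of members or related genes moved by over 1.5 times; the samples share only a number, with same-numbered muscle arrays deviating together at correlations of 0.19 to 0.35. Over all genes in C2C12 cells 55 passed, against 104 with the replicate block, 360 with normexp, 4661 with quantile normalization, 137 without the dim filter, 126 with the mean over probes, 21 with the deposited table, 139 with all 10 arrays and 13 to 235 with 1 array left out; for the difference of changes 1691 passed, against 3179 with normexp, 3859 with quantile normalization and 935 to 1676 with 1 array left out. Leaving out 1 array gave 1869 to 3273 instead of 3964 for AP20187 in muscle and 3149 to 5199 instead of 5184 for vehicle against wild type. For members in vehicle against wild type the deposited table gave 3 instead of 5. In C2C12 cells quantile normalization gave 6 members and 12 related genes instead of 0, and no dim filter 1 member. For the difference of changes, mean over probes and the deposited table gave 1 member each instead of 2, and related genes were 4 with normexp, 10 with quantile and 0 with the deposited table instead of 2. Quantile normalization reversed Oaz1 against wild type to -0.43, and in C2C12 cells Odc1 to 0.61, Srm to 0.59, Azin1 to 0.62, Oaz1 to 0.60, Oat to 0.47, Mat2b to 0.48 and Dhps to 0.58; the cause was not tested. Leaving out 1 array gave members 2 to 4 and related genes 3 to 5 for AP20187 in muscle (2 members without vehicle replicate 2 or either AP20187 array; 3 related genes without vehicle replicate 2), 3 to 5 and 10 to 13 for vehicle against wild type (3 members without wild type replicate 1 or vehicle replicate 2), 5 to 6 and 6 to 10 for AP20187 against wild type, 0 to 0 and 0 to 1 in C2C12 cells, and 1 to 2 and 0 to 3 for the difference of changes. Smox, Odc1, Srm and Amd2 against wild type, and Srm, Sat1 and Amd2 with AP20187, kept their calls in all 15 alternatives. A slide or scan block was not run, since each scan held wild type or transgenic arrays only. With 2 arrays per group, the number of arrays limits precision.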
